A study of Mus musculus with 6 samples.

Results

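The caveolae genes are 9 genes that encode the coat and the neck proteins of caveolae, and they were followed here in vascular smooth muscle cells of control and Ncor1 knockout mice. They were chosen by name, as the rows of the deposited count table with the symbols Cav1, Cav2, Cav3, Ptrf, Sdpr, Prkcdbp, Murc, Ehd2 and Pacsin2. All 9 were found among the 44792 genes of the table. The table uses the older cavin symbols, of which Ptrf is now called Cavin1, Sdpr Cavin2, Prkcdbp Cavin3 and Murc Cavin4.

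Gene expression had been measured by RNA sequencing in primary vascular smooth muscle cells of C57BL/6 mice, with 6 libraries in all. The 3 control libraries, labelled wild type, came from littermates, and the 3 knockout libraries, labelled Ncor1-/-, from mice with a smooth muscle deletion of Ncor1, the nuclear receptor corepressor 1. The design text describes the cells as exposed to 4-hydroxytamoxifen (4-OHT), which induces the deletion. The sources used here do not give the promoter that drives the deletion, the vessel or the age of the animals. Both 3 mice and 3 technical replicates per group are spoken of in the design text, so p-values speak to the scatter among the libraries alone, and that scatter may be technical.

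Caveolae are flask-shaped pits of the plasma membrane, abundant in smooth muscle, endothelium and fat. Caveolins form the membrane-embedded part of their coat, with Cav1 and Cav2 in most cell types and Cav3 in muscle. Cavins add a peripheral coat, for which Ptrf is needed in all tissues, while Sdpr, Prkcdbp and the muscle cavin Murc join it in some. Ehd2, an ATPase at the neck, holds caveolae at the surface, and Pacsin2 is a membrane-bending F-BAR protein of the same site.

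Promoter sequences are shown for Sdpr, the member that rose, for Cav3 and Murc, the members that fell most, and for Cav1 and Ptrf, the main coat genes. Each is the 250 bases before the annotated start, from RefSeq on build GRCm38.p6, which is not the mm9 build of the deposited tables, and where a gene has several starts the most upstream was taken. All 9 genes were matched in RefSeq by symbol or synonym, and 8 of them had a promoter window, all but Prkcdbp. The windows are, for Cav1, chr6:17306085-17306334, plus strand; for Ptrf, chr11:100970618-100970867, minus strand; for Sdpr, chr1:51288876-51289125, plus strand; for Cav3, chr6:112459255-112459504, plus strand; and for Murc, chr4:48663264-48663513, plus strand. They are printed 5′ to 3′ on the strand of the gene, and capitals mark the motifs found by the search described after them.
Cav1: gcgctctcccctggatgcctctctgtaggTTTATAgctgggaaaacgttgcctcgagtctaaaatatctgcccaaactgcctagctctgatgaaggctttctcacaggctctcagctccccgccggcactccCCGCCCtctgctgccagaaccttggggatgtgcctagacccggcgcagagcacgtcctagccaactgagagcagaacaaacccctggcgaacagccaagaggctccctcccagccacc
Ptrf: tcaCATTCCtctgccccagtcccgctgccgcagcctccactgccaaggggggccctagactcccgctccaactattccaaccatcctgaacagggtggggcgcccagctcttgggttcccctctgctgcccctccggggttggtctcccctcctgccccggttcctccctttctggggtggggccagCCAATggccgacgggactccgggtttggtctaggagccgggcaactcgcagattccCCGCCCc
Sdpr: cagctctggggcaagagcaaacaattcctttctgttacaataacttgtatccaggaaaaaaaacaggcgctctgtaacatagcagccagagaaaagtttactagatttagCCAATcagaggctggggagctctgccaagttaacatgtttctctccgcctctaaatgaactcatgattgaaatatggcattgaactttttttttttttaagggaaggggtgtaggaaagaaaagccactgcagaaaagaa
Cav3: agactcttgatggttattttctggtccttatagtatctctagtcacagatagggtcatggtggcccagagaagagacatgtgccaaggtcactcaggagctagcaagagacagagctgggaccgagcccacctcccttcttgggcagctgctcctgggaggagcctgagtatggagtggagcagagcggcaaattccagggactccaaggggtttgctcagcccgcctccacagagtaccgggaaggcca
Murc: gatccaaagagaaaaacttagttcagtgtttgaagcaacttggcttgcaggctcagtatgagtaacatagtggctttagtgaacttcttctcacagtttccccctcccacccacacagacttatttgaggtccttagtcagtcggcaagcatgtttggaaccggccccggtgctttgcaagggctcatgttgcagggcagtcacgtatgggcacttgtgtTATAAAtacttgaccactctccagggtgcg

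The search covered both strands for the GC box (GGGCGG), the CCAAT box (CCAAT), the TATA box (TATAAA) and the MCAT element (CATTCC). It also covered the CArG box, a site bound by the serum response factor SRF. No 2 marked motifs overlapped in the printed windows. A GC box was found before Cav1, Cav2, Ptrf, Ehd2 and Pacsin2 and in 32.7% of all 32851 promoter windows of the table. It was not among the letters before Sdpr, Cav3 and Murc. The Murc window held TATAAA 30 to 25 bases before the start, and the Cav1 window held it on the opposite strand 221 to 216 bases before the start (12.4% of all windows). A CCAAT box was found before Cav2, Ptrf, Sdpr, Ehd2 and Pacsin2 (33.8% of all windows). Ptrf was the member with an MCAT element (12.6% of all windows) and none of the 8 members' windows held a CArG box (1.47% of all windows). The Sdpr window had 40.4% G and C and 2 CpG pairs, that of Murc 48.8% and 5, and that of Cav3 56% and 4. Cav1 had 59.6% and 10 and Ptrf 67.6% and 12, and the median over all windows was 52.4% G and C. Fewer CpG pairs than before Cav1 and Ptrf, and no GC box, were thus shared by Sdpr, which rose, and by Cav3 and Murc, which fell. Most of all windows also lacked a GC box, and CpG pairs were not counted over all windows. These matches describe letters only, and the files hold no measurement of binding at these promoters.

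The libraries held 7125538 to 9579490 counts each, so a count of 0 leaves room for up to 3 counts, or 0.313 to 0.421 CPM, the unit in which each library's counts are scaled to a common total. Ncor1 itself, as a check of the labels, stood at 213 to 230.3 CPM in control and 93.7 to 99.3 CPM in knockout libraries (log2 fold change -1.21), so that 0.432 of its control level was still measured in the knockout. CPM here are scaled with TMM factors, which align the bulk of genes between libraries. With library totals in place of TMM, the median log2 fold change of all tested genes shifts from 0 to 0.13, and this decides the smallest changes below. A positive log2 fold change means a higher level in the knockout, and SE is its standard error. Unless another test is named, p-values are those of edgeR's quasi-likelihood test, adjusted by Benjamini-Hochberg over 13323 tested genes.

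All 9 members passed the filter on low counts. Of these, 1 was higher and 6 were lower in the knockout at an adjusted p under 0.05, where 26.4% of all tested genes were higher and 26.2% lower, together 52.6%. The member that rose was Sdpr. Those that fell were Cav3, Murc, Prkcdbp, Ptrf, Cav1 and, by a small and unstable margin, Ehd2, while Cav2 and Pacsin2 did not pass the test. In CPM, control and knockout libraries were fully apart for 8 of the 9, against 57.8% of all tested genes. The median log2 fold change of the members was -0.31, against 0 over all tested genes. With library totals alone, 3 were higher (Sdpr, Pacsin2 and Cav2) and 5 lower, against 39.8% and 18.1% of all genes (57.9% in either direction), so the split between higher and lower depends on the scaling, while Sdpr, Cav1, Ptrf, Prkcdbp, Cav3 and Murc kept direction and call in all 18 alternatives run.

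**Figure D1:**
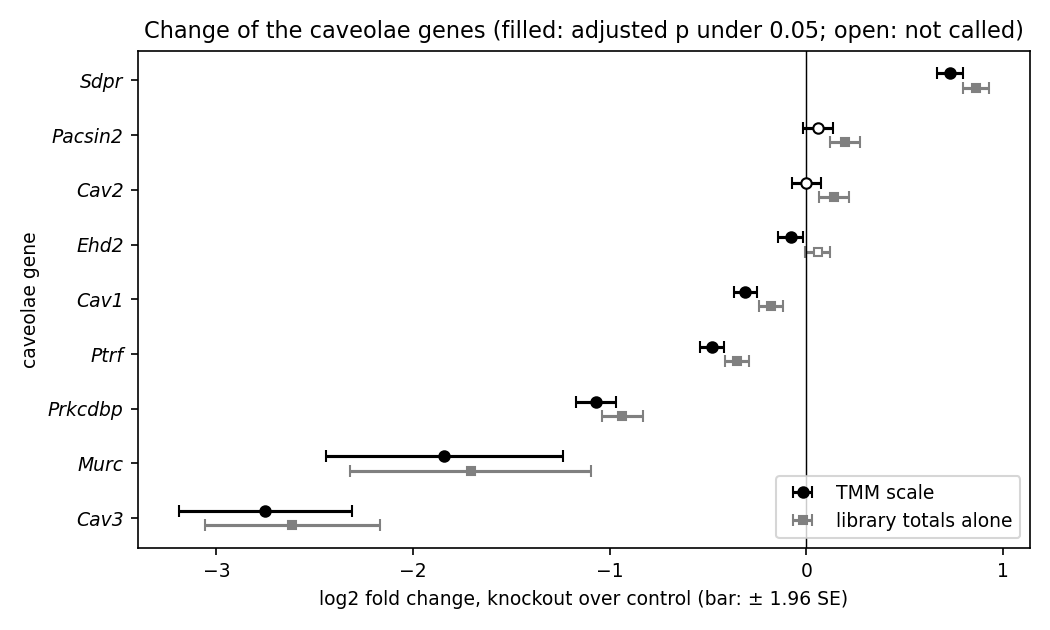
Log2 fold change (x axis, knockout over control) of each caveolae gene (y axis) with bars of 1.96 SE to either side, on the TMM scale (black circles) and with library totals alone (grey squares), filled where the adjusted p was under 0.05. Cav3 at -2.75 and Sdpr at 0.73 lie at the ends, and Cav2, Pacsin2 and Ehd2 lie close enough to 0 that the scaling decides their call.

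Cav1, the caveolin without which tissues other than striated muscle form no caveolae, fell slightly. Control replicates 1 to 3 held 1941, 1996 and 1911 CPM, and knockout replicates 1 to 3 held 1555, 1636 and 1515 CPM. Every knockout library was below every control library. The means were 1949 ± 43.2 and 1569 ± 61.6 CPM (SD, n = 3), a log2 fold change of -0.31 (SE 0.0307, adjusted p = 9.07e-14), or 1.24-fold lower. With library totals alone the change was -0.18 and was still called.

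Cav2, which travels to the cell surface in a complex with Cav1, did not pass the test. Its levels were 280.0, 279 and 261 CPM in control and 287, 260.4 and 275 CPM in knockout libraries, and the groups overlapped. The log2 fold change was 0.00 (SE 0.0387, adjusted p = 0.931), with an interval of -0.07 to 0.08 at 1.96 SE. Library totals alone gave a called increase of 0.14 (adjusted p = 0.00164).

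Cav3, the muscle caveolin, was the member that fell most. There were 90, 81 and 53 counts in the control and 10, 11 and 15 counts in the knockout libraries, or 10.5, 10.4 and 7.75 CPM against 1.28, 1.48 and 1.49 CPM. The lowest control library was several times the highest knockout library. The fitted log2 fold change was -2.75 (SE 0.225, adjusted p = 7.93e-17), 6.71-fold lower, and 0.728% of the tested genes had a log2 fold change as low or lower. From the summed counts, 224 against 36, the ratio of control to knockout was 6.79 with an exact 95% interval of 4.76 to 9.94, which covers counting error only.

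Among the cavins, Ptrf, the coat protein on which caveola formation depends, fell more than Cav1 on the log2 scale, although the difference between the members was not tested. It stood at 1215, 1198 and 1293 CPM in control and 887, 888 and 874 CPM in knockout libraries. The groups did not overlap, and the knockout libraries lay closer together than the control libraries. The change was -0.48 (SE 0.0317, adjusted p = 3.97e-21), from 1236 ± 50.5 to 883 ± 7.88 CPM.

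Sdpr, a cavin that shapes caveolar membrane and is needed for caveolae in some endothelia, moved in the other direction. Control libraries held 371, 359 and 383 CPM and knockout libraries 626, 601 and 616 CPM. All knockout libraries were above all control libraries. The mean rose from 371 ± 11.8 to 614 ± 12.6 CPM, 1.66-fold (log2 fold change 0.73, SE 0.0343, adjusted p = 4.68e-28).

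Prkcdbp, the cavin first described as a binding protein of protein kinase C delta, fell more than Ptrf on the log2 scale, a difference that was likewise not tested. Its levels were 128, 125 and 125 CPM in control and 62.3, 59.5 and 58.6 CPM in knockout libraries, with no overlap. The log2 fold change was -1.07 (SE 0.0524, adjusted p = 3.21e-27), 2.1-fold lower, from 126 ± 1.24 to 60.1 ± 1.92 CPM.

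Murc, the muscle cavin, was the least expressed member. It had 30, 27 and 26 counts in the control libraries and 7, 10 and 8 counts in the knockout libraries, so it passed the filter through its control level and its call is in part fixed by that. In CPM these were 3.49, 3.47 and 3.8 against 0.894, 1.35 and 0.795, again without overlap. The log2 fold change was -1.84 (SE 0.308, adjusted p = 6.37e-07), and the ratio of summed counts, 83 against 25, was 3.62 with an exact 95% interval of 2.29 to 5.92 for counting error only. This and Cav3, both at under 11 CPM in every library, rest on far fewer reads than the other members.

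The neck proteins changed little. Ehd2 stood at 726, 715 and 739 CPM in control and 702, 693 and 672 CPM in knockout libraries, which do not overlap but lie close. Its log2 fold change of -0.08 (SE 0.0321) passed the test narrowly (adjusted p = 0.039). It was 0.06 and not called with library totals alone, a block for replicate number ended the call (adjusted p = 0.053), and leaving out control replicate 1 or 3 or knockout replicate 2 or 3 ended the call (adjusted p = 0.0934, 0.104, 0.0884 and 0.218). Pacsin2 held 222, 214 and 211 CPM in control and 225, 224 and 226 CPM in knockout libraries. Its log2 fold change of 0.06 (SE 0.0385, adjusted p = 0.166, interval -0.01 to 0.14) did not pass, and with library totals alone it was 0.20 and called (adjusted p = 1.05e-05).

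Levels of different genes were compared per gene length, in the FPKM deposited by the authors, which are scaled by library totals. In control cells the order of mean level was Cav1 (708 ± 20.3 FPKM), Ptrf (366 ± 12.5), Ehd2 (226 ± 2.15), Prkcdbp (117 ± 1.49), Sdpr (116 ± 2.92), Cav2 (94.7 ± 4.35), Pacsin2 (55.0 ± 1.62), Cav3 (7.87 ± 1.33) and Murc (1.67 ± 0.0747), with SD over 3 libraries. Neighbours in that order did not overlap, except Prkcdbp and Sdpr. In knockout cells Sdpr, at 210.0 ± 4.41 FPKM, stood next behind Cav1 (625 ± 22.6), Ptrf (287 ± 1.24) and Ehd2 (235 ± 4.26). Prkcdbp, at 61.2 ± 1.75 FPKM, had moved below Cav2 (104 ± 5.02) to the level of Pacsin2 (63.0 ± 0.42), and the libraries of these last 2 overlapped. Cav3 (1.28 ± 0.113) and Murc (0.517 ± 0.149) remained at the bottom.

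**Figure D2:**
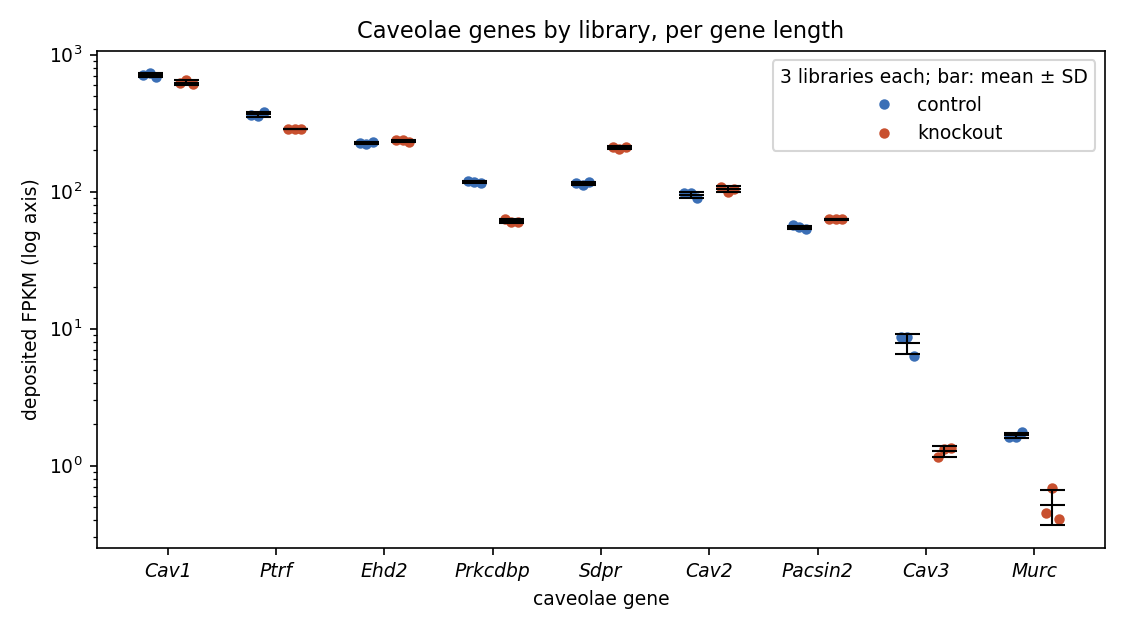
Deposited FPKM (y axis, log scale) of each caveolae gene (x axis) in the 3 control (blue) and 3 knockout (red) libraries, with black bars for mean ± SD. Prkcdbp and Sdpr lie together in control libraries (117 and 116 FPKM) and apart in knockout libraries (61.2 and 210.0 FPKM).

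As shares of summed cavin FPKM, Ptrf made up 60.4%, 60.7% and 61.7% in control and 50.9%, 51.9% and 51.2% in knockout libraries, a difference of -9.59 percentage points. The groups did not overlap, and the two-sided exact permutation test gave p = 0.1, the smallest that 3 against 3 allows. Sdpr had 19.3% ± 0.146 in control and 37.6% ± 0.507 in knockout libraries, and Prkcdbp 19.5% ± 0.651 and 11.0% ± 0.223. Murc was at 0.279% ± 0.00634 and 0.0927% ± 0.0274. The ratio of Ptrf to Sdpr was 3.11, 3.17 and 3.21 in control and 1.35, 1.40 and 1.35 in knockout libraries. Summed cavin FPKM, scaled by library totals, ranged from 588 to 616 in the controls and from 554 to 564 in the knockouts. On this scale the difference was smaller than that of the single genes Sdpr and Prkcdbp. Sums, unlike shares, depend on the scaling between libraries. The cavin sum was not taken on the TMM scale, so whether this order holds there was not tested.

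Cav1 made up 87.0%, 87.3% and 87.8% of caveolin FPKM in control and 84.9%, 86.7% and 85.1% in knockout libraries, a difference of -1.82 percentage points (two-sided exact permutation p = 0.1, again the smallest possible). Cav2 took 11.7% ± 0.279 and 14.3% ± 0.976, and Cav3 0.968% ± 0.141 and 0.175% ± 0.016. Per length, Cav1 exceeded Cav2 by a ratio of 7.49 ± 0.212 in control and 6.01 ± 0.498 in knockout libraries. Its ratio to Ptrf was 1.94 ± 0.117 and 2.18 ± 0.0718, the groups not overlapping. Shares and ratios within a library do not depend on the scaling between libraries, but they do not show which gene of a pair changed.

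**Figure D3:**
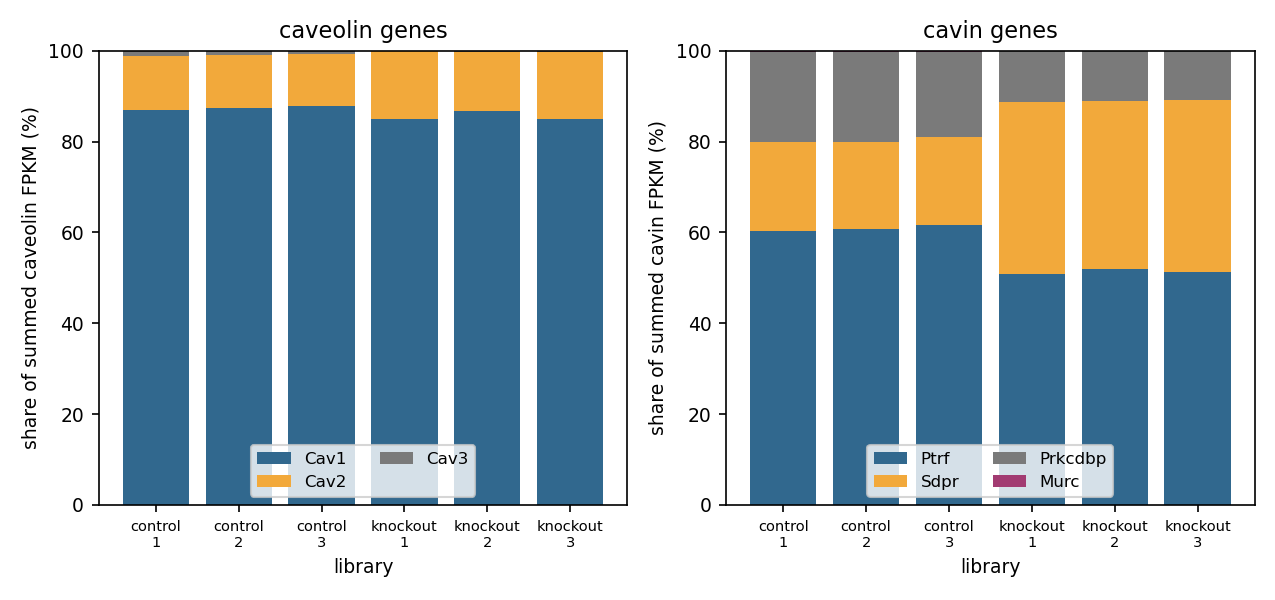
Share of summed FPKM (y axis, percent) of the caveolin genes (left) and the cavin genes (right) in each library (x axis). Sdpr widens from 19.3% to 37.6% of the cavins and Prkcdbp narrows from 19.5% to 11.0%, while Cav1 stays between 84.9% and 87.8% of the caveolins.

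Markers of other cells moved in the same libraries, where 26.4% of all tested genes were higher and 26.2% lower. Of 12 endothelial markers 12 were higher (median log2 fold change 1.76), and their summed level was 1896 to 1968 CPM in control and 6790 to 6946 CPM in knockout libraries, with none at 0 in either group. Plvap, which forms the diaphragms of endothelial caveolae, rose from 140.3 ± 2.59 to 859 ± 31.5 CPM, and Mmrn2, Emcn and Cdh5 rose by 2.19, 1.93 and 1.61 on the log2 scale. Of 11 macrophage markers 10 were higher (median 3.57), with a sum of 46.45 to 69.74 against 563.7 to 616.4 CPM, and 4 of the 10, like 1 of the endothelial markers, met the filter in fewer than 3 control libraries. Of 10 smooth muscle markers 9 were lower (median -1.97), with a sum of 11630 to 11840 against 3929 to 4133 CPM. Most of that sum in the knockout libraries was Acta2 (mean 2697 CPM) and Tagln (942 CPM). Myh11 fell from 304 to 29.9 CPM and Itga8 from 269 to 24.4 CPM. Smooth muscle markers were thus measured in both groups, but the sum does not settle which cells the libraries held. Endothelial cells are rich in Cav1, Ptrf, Sdpr and Ehd2. The part of these markers' cells in the changes of the caveolae genes was not tested, and in bulk RNA fewer cells of a type and less RNA per cell cannot be told apart.

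Markers of the other muscle types and of fat bear on Cav3 and Murc and on the caveola-rich adipocyte. Of 10 skeletal and cardiac muscle markers 2 were abundant enough to be tested, neither was called by edgeR or DESeq2 (1 had an unadjusted p under 0.05), and the list summed to 6.691 to 8.772 CPM in control and 4.596 to 6.866 CPM in knockout libraries. Without control replicate 2 or knockout replicate 2, 1 of them was called lower. Myh6 was at 0 in all 6 libraries, Myh1 at 0 in all control, and Ckm and Mb at 0 in all knockout libraries. Among 7 adipocyte markers Adipoq, Plin1 and Lep were at 0 in all 6 libraries, and of the 3 tested 2 were higher and 1 lower. The libraries of the groups overlapped for Lipe, 1 of the higher, and its call was lost in 7 of 18 alternatives, among them the DESeq2 test (adjusted p = 0.16), the replicate block (0.0523) and leaving out control replicate 1 or 2 or knockout replicate 1 or 2 (0.198, 0.175, 0.0664 and 0.114). Of 5 tested fibroblast markers 3 were higher and 2 lower, against 26.4% and 26.2% of all tested genes. That list of 8, of which Dpt, Lum and Pi16 were too low to test, summed to 352.3 to 380.2 CPM in control and 1127 to 1187 CPM in knockout libraries. Most of the sum in the knockout libraries was Cd34 and Dcn, so it does not stand for the list as a whole. Dcn rose from 26.1 ± 2.61 to 321 ± 7.60 CPM and Cd34 from 223 ± 12.7 to 766 ± 30.9 CPM. Col14a1 and Pdgfra fell by 1.32 and 1.29 on the log2 scale. Of 6 mesothelial and epithelial markers 2, Krt18 and Krt19, were tested and both were higher, against 26.4% of all tested genes. Msln, Upk3b, Krt8 and Epcam were too low to test. Their means were 0.179, 0.358, 0.467 and 0 CPM in control libraries. In knockout libraries they were 0.078, 0.532, 0.556 and 0.0331 CPM.

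The neck proteins have paralogues, of which several act on endosomes. Of 5 EHD and PACSIN paralogues 4 were tested, of which 2 rose and 1 fell (median 0.20, against 0 over all tested genes). Of all tested genes 26.4% rose and 26.2% fell. Ehd4, an endosomal EHD protein that can stand in for Ehd2 at caveolae, stood at 97.9, 93.5 and 99.3 CPM in control and 294, 272 and 278 CPM in knockout libraries. It rose 2.91-fold (log2 fold change 1.54, SE 0.0433, adjusted p = 6.67e-40), against 1.66-fold for Sdpr. Ehd1, which acts in endosomal recycling, rose from 144 ± 2.23 to 181 ± 6.24 CPM (0.33). Pacsin3, the muscle form, fell from 27.5 to 36.3 CPM in the controls to 22.8 to 23.4 CPM in the knockouts (-0.52). Ehd3 had 14.3 ± 2.63 and 15.2 ± 2.36 CPM (0.08, adjusted p = 0.641), and the neuronal Pacsin1 had 0 CPM in all control and at most 0.135 CPM in knockout libraries. In control cells Ehd2 stood at 226 FPKM against 43.0 for Ehd1, 27.3 for Ehd4 and 3.74 for Ehd3. In knockout cells Ehd4 was at 86.9 FPKM, above Ehd1 at 59.3.

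Partners at the neck and in the cytoskeleton were mixed. Of 11 genes 9 were tested, 2 were higher and 4 lower (median -0.07), against 26.4% and 26.2% of all tested genes. With library totals alone the median was 0.06, with 4 higher and 3 lower, against 39.8% and 18.1% of all genes. By the DESeq2 test 0 were higher and 3 lower. Flna, the actin crosslinker filamin A that links caveolae to stress fibres, had 5853 ± 112 CPM in control and 3454 ± 97.6 CPM in knockout cells and so fell by 0.76 on the log2 scale (SE 0.029). Ror1, a receptor that binds Ptrf and Cav1, fell from 10.9 ± 0.631 to 1.22 ± 0.512 CPM (-3.13). Dnm1, the neuronal dynamin, fell by 2.34 on the log2 scale. Ror1 and Dnm1 met the filter through their control level, as Murc did, which in part fixes their direction, as does the knockout level for Dnm3, a higher call named after its values were seen. The kinase Fyn had a change of 0.24 that was not called by the DESeq2 test (adjusted p = 0.0509) or without control replicate 1 (0.0502).

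Of 27 receptors, channels and enzymes that have been described in caveolae of vascular cells, 20 were tested. Against 26.4% higher and 26.2% lower over all tested genes, 6 of the 20 were higher and 11 lower (median -0.31). Of these calls, 4 of the lower (Ednra, Kcnj8, Abcc9 and Adcy5) and 2 of the higher (Cd36 and Bdkrb2), named after their values were seen, were of genes that met the filter in fewer than 3 libraries of the group where they were low, so their direction is in part fixed by the filter. In both FPKM fits with a filter, 15 were tested, 5 were higher and 6 lower (median 0.00). With library totals alone 7 were higher and 10 lower (median -0.18), against 39.8% and 18.1% of all genes. Leaving out any library put the median between -0.25 and -0.15, with 21 genes tested in place of 20. The members with the smallest adjusted p were Pdgfrb, the platelet-derived growth factor receptor of mural cells, which fell from 729 ± 11.6 to 207 ± 9.84 CPM (-1.82); Nos3, the endothelial nitric oxide synthase held inactive by Cav1, which rose from 67.7 ± 6.86 to 216 ± 6.58 CPM (1.67); the sodium-calcium exchanger Slc8a1, which fell by 1.69; and the plasma membrane calcium pump Atp2b4, which fell by 2.44. The list shares Kdr with the endothelial markers, whose summed level was higher in the same libraries, and their part in the rise of Nos3 was not tested.

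SRF and its cofactors drive many smooth muscle genes, and Myocd is also on the smooth muscle marker list. Of 4 such factors 3 were lower and 1 higher (median -0.36), against 26.2% and 26.4% of all tested genes. Myocd, the smooth muscle cofactor myocardin, fell from 20.5 ± 3.35 to 6.26 ± 0.55 CPM (-1.71), and Srf (-0.37) and Mkl1 (-0.34) fell less. Mkl2 had a change of 0.49, which was not called by the DESeq2 test (adjusted p = 0.109), by FPKM with pseudocount 1 and no filter (0.0962), or without control replicate 2 or 3 or knockout replicate 3 (0.0514, 0.0625 and 0.121).

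Other membrane coats gave a point of reference. Of the 10 clathrin coat and adaptor genes, 3 rose and 1 fell (median 0.03), where 26.4% of all tested genes were higher and 26.2% lower. With library totals alone 8 were higher and 1 lower, against 39.8% and 18.1% of all genes. Picalm, a clathrin assembly protein, fell from 583 ± 18.6 to 424 ± 9.27 CPM (-0.46), and Cltb, Ap2b1 and Ap2s1 rose by 0.32, 0.20 and 0.20. The flotillins, which mark rafts without the caveolar shape, both fell: Flot1 from 114 ± 9.79 to 83.8 ± 3.30 CPM (-0.44) and Flot2 from 142 ± 6.93 to 108 ± 5.46 CPM (-0.39). With their SPFH-domain relatives, all 9 were called, against 52.6% of all tested genes. Of these, 5 were higher, among them Phb2 (0.28) and Erlin2 (0.29), and 4 lower (median 0.28). The lower ones were the flotillins, Stom (-0.30) and Stoml1 (-0.44), so the median does not describe them. Whether the caveolae genes differ as a list from these lists was not tested.

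**Figure D4:**
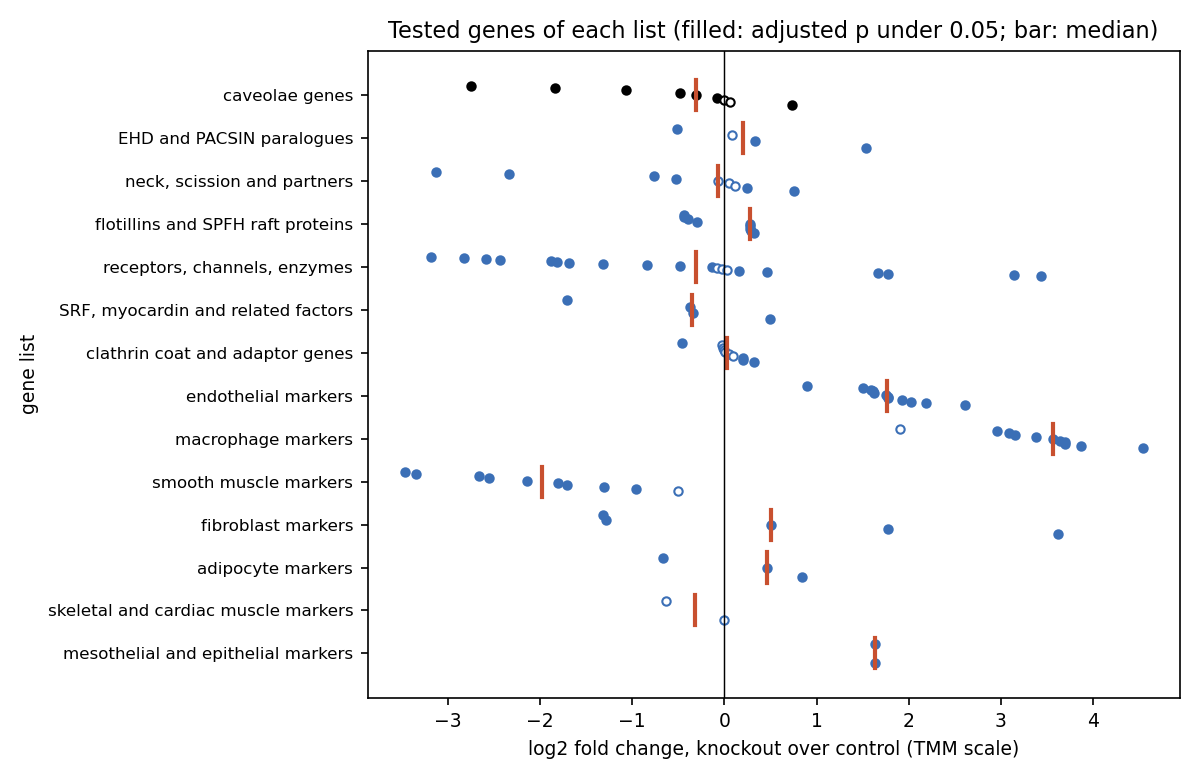
Log2 fold change (x axis, knockout over control, TMM scale) of the tested genes of each list (y axis), filled where the adjusted p was under 0.05, with a red bar at the median. The caveolae genes spread from -2.75 to 0.73 around a median of -0.31, between the endothelial markers (median 1.76) and the smooth muscle markers (median -1.97).

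The genes nearest to Cav1 and Ptrf in level and pattern were sought as those with the smallest Euclidean distance in log2(FPKM + 1) over the 6 libraries. For Cav1 these were ND4, a mitochondrially encoded complex I subunit (distance 0.292), Tpm4, a tropomyosin (0.321), and Calr, the chaperone calreticulin (0.35). For Ptrf they were Calm2, a calmodulin gene (0.259), Slc25a4, the mitochondrial ADP/ATP carrier (0.3), and Aebp1, a secreted matrix protein (0.339). Among the fold changes of these genes, that of Calr was -0.34, beside -0.31 for Cav1, and those of Calm2, Slc25a4 and Aebp1 were -0.42, -0.27 and -0.66, beside -0.48 for Ptrf. The genes were chosen on these same 6 libraries, so the nearness of their fold changes is in part fixed by the choice. ND4 had -0.12 on the TMM scale and 0.02 with library totals, and Tpm4 -0.19 and -0.06, neither called with library totals. No other caveolae gene was among the nearest 3 of either. The distance includes level, and in control cells Cav1 (708 FPKM), Ptrf (366) and Ehd2 (226) lay far apart. It could thus not show whether the members share a pattern.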

How the data were processed

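RNA sequencing of 6 libraries was analysed, grouped by title and genotype labels. Per the submitters' processing notes, HISAT2 2.0 and build mm9 were used; the sources used here do not give the counter, the annotation or the use of strand. The deposited count table holds whole-number counts per gene symbol. The FPKM deposited by the authors equal, for 15683 genes, the count divided by library total and 1 gene length (relative spread at most 1.05e-05), so they carry no other normalisation. Of 23349 genes with any count, 13323 passed filterByExpr (10 counts at the median library size, or 1.28 CPM, in 3 libraries) and were tested with edgeR 4.0.16 in R 4.3.3 (TMM, robust quasi-likelihood, threshold 0.05). The members and lists were chosen with earlier results of these data known. Named by rule were all members and EHD and PACSIN paralogues, Ncor1, and up to 4 called genes of smallest adjusted p per list. The 3 nearest profiles each for Cav1 and Ptrf were also named by rule. Other genes were named after their values were seen. In simulated counts of 13121 genes, 50 genes were changed by each size. The fit called 50% of the 1.25-fold changes, 82% of the 1.5-fold, 94% of the 2-fold and 100% of the 4-fold ones, and made 6 false calls. These counts were drawn from the fitted model with few genes changed, equally up and down. The rates need not hold in the data, where 52.6% of tested genes were called. Alternatives used other scalings and filters, DESeq2 1.42.0, limma-voom and limma-trend on FPKM (limma 3.58.1; pseudocounts 1 and 0.1), each library left out, and a replicate block. Counts of library pairs within a group differed by more than sampling noise (chi-square per degree of freedom 1.38 to 1.84).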

Additional observations from a re-analysis of the deposited data

How the results depend on the processing

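Of the 9 caveolae genes, 6 to 8 were called under the 18 alternatives, 6 to 7 when each library was left out in turn and 6 with the replicate number as a block. The count over all genes ran from 5584 (DESeq2 test) to 7710 (library totals alone), and from 6424 to 6723 with a library left out. The related lists together gave 37 to 48 called against 43, and 39 to 42 with a library left out. Cav2 changed sign around 0: upper-quartile scaling gave 0.00, and leaving libraries out gave -0.03 (control replicate 3, and likewise knockout replicate 1) to 0.04. It was called, at 0.14, with library totals alone and with filtered FPKM. Ehd2 turned to 0.06 with library totals alone and in all 3 FPKM fits, which are scaled by library totals, and was not called without the low-count filter (adjusted p = 0.106) or by the DESeq2 test (0.0764). Pacsin2 was called, at 0.19 to 0.20, in the same 4 fits. Among genes outside the 9, Ehd3 ranged from -0.05 to 0.18 with a library left out (-0.05 for control replicate 3, -0.04 for knockout replicate 1), and ND4 to 0.02 with library totals alone and in the FPKM fits. The difference in the Cav1 share was -2.3 percentage points from counts and -2.38 to -1.5 with a library left out; that in the Ptrf share was -14.5 and -9.89 to -9.2. Same-numbered libraries did not deviate together (correlations 0.0103, 0.0228 and 0.0352 across genes), though each correlated best with its own number. The block gave 6995 called genes against 7004, and Ehd2 was the member whose call it ended. Dnm1 and Mkl2 did not pass the filter on FPKM and have no value in the filtered FPKM fits. Depth limits Cav3 and Murc, with 36 and 25 counts over the knockout libraries.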
